A study of Drosophila melanogaster with 10 samples.

Results

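Thoraces of Esg>yki males at day 26 were compared with thoraces of the same genotype at day 20, over all genes. Both days lie in the tumor shutdown phase: flies were held at 29 °C until day 14 and at 18 °C from then on, so day 20 is 6 days and day 26 is 12 days after the shift. Esg>yki flies carry esg-Gal4, tub-Gal80ts and UAS-GFP over UAS-yki-act, the active Yorkie allele that the study calls yki[S3A]. Control flies carry esg-Gal4, tub-Gal80ts and UAS-GFP over a wild-type chromosome. The 2 libraries compared are of 10 in the series, which holds control thoraces at days 2, 14 and 38 and Esg>yki thoraces at days 2, 8, 14, 20, 26, 32 and 38. Each library pools 8 to 10 thoraces, and each condition has 1 library. No control library of day 20 or day 26 was analysed here, so the passage of time and the end of the tumor signal cannot be told apart between these days. Of 17563 genes in the files, 8525 reached 2 RPKM (reads on a gene divided by its exon length and by all reads on genes) in at least 1 of the 2 libraries and were compared.

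Gal80ts blocks Gal4 at 18 °C and releases it at 29 °C. The esg-Gal4 driver acts in the stem and progenitor cells of the gut. There active Yorkie, the transcriptional co-activator at the end of the Hippo pathway, makes the tissue overgrow. The thorax lies outside the tumor. It holds mainly flight muscle, which runs on sugar through glycolysis and on very abundant mitochondria, with some fat body, the organ that stores fat and glycogen and secretes antimicrobial peptides. Antimicrobial peptide genes are switched on by the Imd and Toll pathways when bacterial peptidoglycan or other danger signals are sensed. Insulin signaling restrains FoxO, and TOR signaling restrains REPTOR, a transcription factor of the starvation response.

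The day 20 library held 22853490 reads on genes and the day 26 library 28665007, within the range of 14615109 to 38208955 over the series. Mitochondrial genes took 29.0% of reads at day 20 and 29.5% at day 26, and rRNA took 5.64% and 4.44%. The tissue label was checked against marker genes. Flight muscle markers were abundant, with Mhc (myosin heavy chain) at 272 RPKM on day 20 and 603 RPKM on day 26, and apolpp, the lipoprotein of the fat body, stood at 1467 and 1622 RPKM. The 7 gut markers summed to 0.823 RPKM on day 20 and 2.36 RPKM on day 26, with esg at 0.58 and 0.45 RPKM. Markers of the male accessory gland and the testis each summed to under 1 RPKM on both days. The gene yki stood at 5.65 RPKM on day 20 and 6.36 RPKM on day 26 in these thoraces (log2 ratio 0.17, interval -0.10 to 0.44). In pooled tissue, fewer cells of a type and less RNA per cell cannot be told apart.

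Most genes stayed within 2-fold. The log2 ratio of day 26 over day 20 had a median of -0.11 over the 8525 genes, with quartiles of -0.36 and 0.18, and 93.7% of genes lay within 2-fold. A gene is called higher or lower when its RPKM differed by more than 2-fold. By this rule 262 genes were higher at day 26 (3.07% of those compared) and 271 genes were lower (3.18%). These shares are the background for every count of called list members below. Because the median of all genes was -0.11, most genes compared lay below 0. Counts of list members below 0 are to be read beside that. Scaling by edgeR's TMM factors moved the median of all genes to -0.01 and gave 327 higher and 217 lower genes, and scaling by DESeq2's median of ratios moved it to 0.02 and gave 352 and 208. Protein-coding genes made up 247 of the 262 higher genes but 144 of the 271 lower genes, which also held 84 small nucleolar RNAs and 20 tRNAs. The series text speaks of replicates, but the labels give 1 sample per condition and the 4 sequencing pools were taken as repeat runs of it. A ratio is therefore given with its 95% exact Clopper-Pearson interval on the reads of the gene in both libraries. These intervals cover counting error only, since the spread between fly pools was not measured. The interval lay wholly above 0 for 256 of the higher genes and wholly below 0 for 250 of the lower ones.

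**Figure D1:**
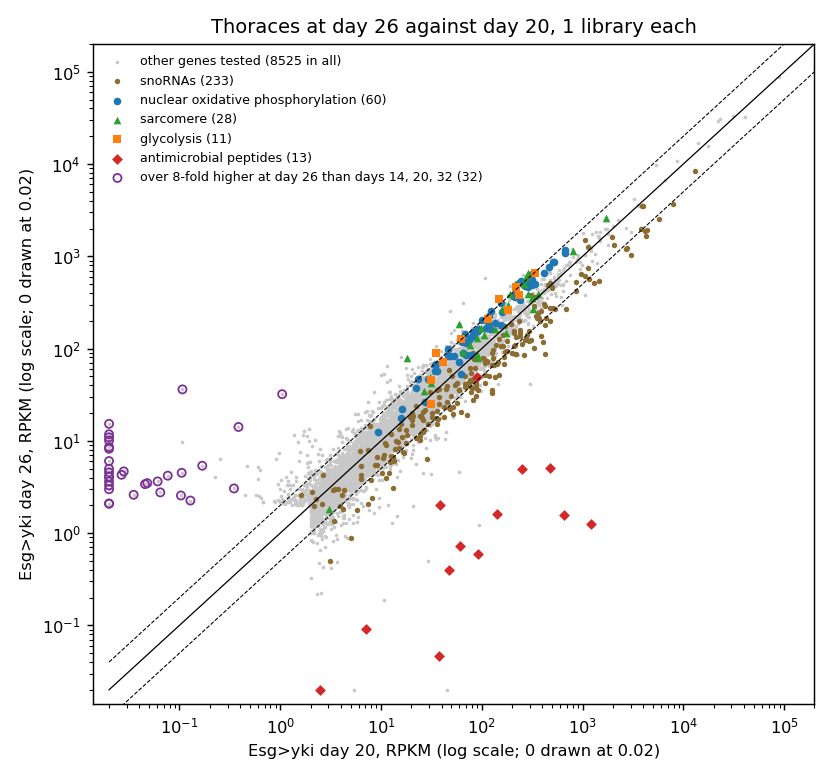
RPKM at day 26 (vertical axis, log scale) against day 20 (horizontal axis, log scale) for the 8525 genes compared, 1 library each, with gene lists in color. The solid line marks equality and the dashed lines 2-fold. Of 13 antimicrobial peptide genes 12 lie below the lower dashed line, while glycolysis, sarcomere and nuclear oxidative phosphorylation genes lie mostly between the solid line and the upper dashed line or above it.

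The sharpest difference was in antimicrobial peptides, which as a list peaked at day 20 in Esg>yki thoraces and were for the most part far lower at day 26. Of the 14 genes listed, 13 were compared and 12 were lower at day 26, with none higher, against 3.18% of all genes lower. Their median log2 ratio was -6.53. All 14 genes had more RPKM at day 20 than at day 14, and 1 of 14, Drs, had more at day 26 than at day 14.

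DptA encodes a diptericin, a peptide active against Gram-negative bacteria that serves as the standard readout of the Imd pathway (FBgn0004240, chromosome 2R, positions 18865765 to 18866260, plus strand, Release 6). In Esg>yki thoraces DptA stood at 0.05 RPKM on day 2, 7.10 on day 8, 175 on day 14, 1203 on day 20, 1.27 on day 26, 5.54 on day 32 and 0.69 on day 38. In control thoraces it stood at 15.6 RPKM on day 2, 0.45 on day 14 and 0.33 on day 38. The day 20 library was thus the highest of the 10, and 13642 reads at day 20 compared with 18 reads at day 26. The level at day 26 was 951-fold lower than at day 20 (log2 ratio -9.89, interval -10.65 to -9.23).

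DptB, the second diptericin, followed the same course. It stood at 1.31 RPKM on day 2, 15.1 on day 8, 61.2 on day 14, 656 on day 20, 1.55 on day 26, 16.8 on day 32 and 2.29 on day 38 in Esg>yki thoraces, and at 48.2, 1.22 and 1.32 RPKM in control thoraces at days 2, 14 and 38. It was 422-fold lower at day 26 than at day 20 (log2 ratio -8.72, interval -9.43 to -8.09). Dro, which encodes drosocin, was at 37.9 RPKM on day 20 and held 1 read at day 26 (log2 ratio -9.68, interval -14.98 to -7.19).

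The attacins, larger peptides against Gram-negative bacteria, were lower as a family. AttC went from 474 RPKM at day 20 to 5.12 at day 26 (log2 ratio -6.53), AttA from 141 to 1.59 (-6.47) and AttB from 90.7 to 0.60 (-7.25), while AttD had 42 reads at day 20 and 0 at day 26. AttA and AttB are near-identical copies, so the split of reads between them is uncertain. The cecropins were on the same side, with CecA1 at 60.5 and 0.72 RPKM (-6.39) and CecA2 at 47.0 and 0.39 RPKM (-6.90). Their sequences are close as well, and the same uncertainty holds. CecC held 63 reads at day 20 and 1 at day 26, and CecB, which stayed under 2 RPKM and was not compared, held 18 reads and 1. AttC and DptB overlap genes on the other strand, and the use of strand in the counting is not given in the sources used here, so their reads cannot be told apart from those of the partners.

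The remaining peptides differed less. Mtk (metchnikowin) was at 250.3 RPKM on day 20 and 4.95 on day 26 (log2 ratio -5.66), and Def (defensin) at 38.4 and 2.01 RPKM (-4.25). Drs (drosomycin), the antifungal readout of the Toll pathway, was at 89.7 and 49.1 RPKM and stayed within 2-fold (log2 ratio -0.87, interval -1.03 to -0.71). Drs was also higher at day 26 than in the Esg>yki library of day 14, where it stood at 13.1 RPKM. Summed over the 14 genes, RPKM on days 14, 20, 26, 32 and 38 was 419, 3101, 67.5, 194 and 45.3. Drs alone made up 49.1 of the 67.5 RPKM at day 26. At day 26 the level was above control thoraces of day 14 for 11 of the 14 genes and above those of day 38 for 9. At day 32 all 14 genes were above their day 26 level and none was above its day 20 level. Control thoraces summed to 638, 22.3 and 35.1 RPKM on days 2, 14 and 38, so the youngest control library was itself well above the other 2.

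**Figure D2:**
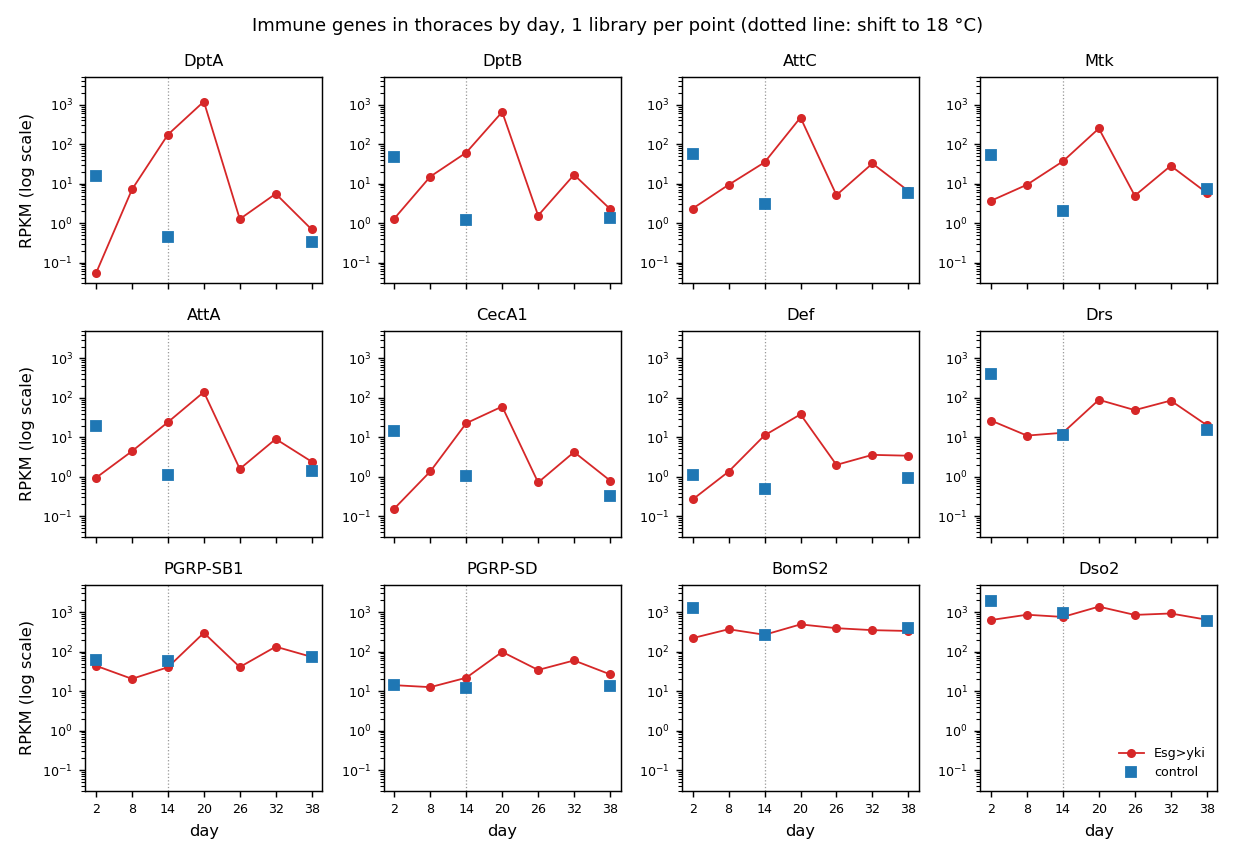
RPKM (log scale) of 12 immune genes against day in Esg>yki thoraces (red line) and control thoraces (blue squares), 1 library per point, with the shift to 18 °C dotted. DptA peaks at 1203 RPKM on day 20 and stands at 1.27 RPKM on day 26, while Dso2 stands at 1385 and 855 RPKM on these days.

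Sensors and brakes of the Imd pathway differed in part. Of 9 peptidoglycan recognition genes compared, 4 were lower at day 26 and none higher, against 3.18% of all genes lower. Their median log2 ratio was -0.92. PGRP-SB1, a secreted amidase, went from 299.9 to 40.8 RPKM (log2 ratio -2.88, interval -2.99 to -2.77), having stood at 40.3 RPKM on day 14, and was at 134 RPKM on day 32. PGRP-SC2, an amidase that cleaves peptidoglycan and so damps the Imd pathway, went from 10.6 to 0.19 RPKM, with 181 and 4 reads. PGRP-SD, which presents peptidoglycan to the receptor, went from 98.8 to 34.4 RPKM (-1.52), and PGRP-LF, an inhibitor of that receptor, from 23.1 to 9.81 RPKM (-1.24). PGRP-SD and PGRP-LF also overlap genes on the other strand. The receptors themselves stayed within 2-fold: PGRP-LC was at 15.7 and 8.91 RPKM (-0.82) and PGRP-LE at 9.33 and 8.68 RPKM (-0.10).

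The Bomanins and Daishos, short peptides under Toll control, mostly stayed within 2-fold. Of 14 compared, 1 was lower, BomS3 at 79.3 and 39.5 RPKM (log2 ratio -1.01), a call that ends under TMM or DESeq2 scaling or with a pseudocount of 1 RPKM, and 12 of 14 lay below 0 with a median log2 ratio of -0.39. Dso2, the most abundant, was at 1385 RPKM on day 20 and 855 on day 26 (-0.70), whereas BomS6 was 1 of 2 members above 0 at 573 and 597 RPKM. Of the Turandot and JAK-STAT list, 2 of 10 genes compared were lower and 1 was higher, beside 3.18% and 3.07% of all genes. TotM and TotC, secreted stress proteins, went from 14.3 to 1.52 RPKM (-3.23) and from 14.5 to 4.08 RPKM (-1.83), whereas TotX went from 4.65 to 13.9 RPKM (1.58). TotA, the most abundant, stood at 218 and 171 RPKM (-0.35). TotX had stood at 168 RPKM in control thoraces of day 14 and at 2.21 in Esg>yki thoraces of that day.

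A few genes outside these lists were also far lower. CG45045 went from 94.6 to 1.24 RPKM (log2 ratio -6.26, interval -7.39 to -5.32). CG43920 held 426 reads at day 20, which is 45.6 RPKM, and 0 at day 26, so its fall was at least 178-fold when the empty library is set to 3 reads. It had at most 1.24 RPKM in every other library. The following were picked after their values had been seen. The gene edin, named for its elevation during infection, was at 3.31 RPKM on day 14, 29.1 on day 20 and 0.50 on day 26. IBIN, a short gene named for its induction by infection, was at 32.2 RPKM on day 14, 58.9 on day 20 and 4.59 on day 26. NimC4, a phagocytosis receptor, had no day 20 peak, at 35.8 RPKM on day 8, 25.1 on day 14, 21.0 on day 20 and 1.96 on day 26. In all, 92 genes were more than 2-fold higher at day 20 than at days 8, 14 and 26, of which 54 were protein-coding and 75 were also below 50% of their day 20 level at day 32. Beside these immune genes, Hml, the hemolymph clotting factor that marks blood cells, was at 63.2 RPKM on day 20 and 51.9 on day 26. The 7 blood cell markers summed to 135 and 152 RPKM, and 1 of 7 was higher, PPO1, a prophenoloxidase, at 19.4 and 43.0 RPKM. Of the 7, 4 lay below 0, with a median log2 ratio of -0.14 beside -0.11 for all genes. The part of blood cells in the immune values was not tested.

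Genes of insulin signaling mostly lay lower at day 26. Of 13 listed, 3 were lower at day 26, none was higher, and all 13 lay below 0, with a median log2 ratio of -0.29 beside -0.11 for all genes. Under TMM or DESeq2 scaling foxo and Sdr turned above 0, which left 11 of 13 below. InR, the insulin receptor and itself a FoxO target, went from 34.1 RPKM at day 20 to 11.5 at day 26 (log2 ratio -1.56, interval -1.62 to -1.51). In the other Esg>yki libraries InR stood at 4.41 RPKM on day 2, 19.6 on day 8, 29.7 on day 14, 12.0 on day 32 and 9.79 on day 38, and in control thoraces at 5.83, 9.45 and 12.2 RPKM on days 2, 14 and 38. The level thus climbed up to day 20 and stood near the control range from day 26 on. Thor, the translation inhibitor 4E-BP and another FoxO target, went from 43.1 to 10.4 RPKM (-2.06, interval -2.28 to -1.84) and stood at 29.1 RPKM on day 14 and 13.6 on day 32. Ilp6, the insulin-like peptide of the fat body, went from 14.0 to 6.26 RPKM (-1.16).

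Kinases downstream of the receptor stayed within 2-fold. Akt was at 44.4 and 26.8 RPKM (log2 ratio -0.73) and Pdk1 at 67.3 and 42.6 RPKM (-0.66). The gene foxo stood at 27.4 RPKM on day 20 and 26.5 on day 26, with an interval of -0.12 to 0.03 that includes 0. ImpL2, the secreted insulin antagonist, stood at 4.27 and 3.48 RPKM (-0.29).

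No gene of the TOR and REPTOR list passed 2-fold, though 15 of 17 lay below 0 (14 under TMM and 13 under DESeq2 scaling), with a median of -0.28. REPTOR (FBgn0039209, chromosome 3R, positions 24557368 to 24582864, minus strand, Release 6) was at 15.6 RPKM on day 2, 40.0 on day 8, 65.5 on day 14, 62.4 on day 20, 35.0 on day 26, 34.4 on day 32 and 34.1 on day 38 in Esg>yki thoraces. In control thoraces REPTOR was at 17.1, 28.6 and 47.7 RPKM on days 2, 14 and 38. Days 14 and 20 were thus the highest libraries, and day 26 was close to days 32 and 38 (log2 ratio of day 26 over day 20 -0.84, interval -0.88 to -0.79). REPTOR-BP, its binding partner, lay on the other side, at 171 and 221 RPKM (0.37, interval 0.30 to 0.44). CG42390 stood at 92.8 and 70.6 RPKM (-0.40) and RhoGAP68F at 34.0 and 28.8 RPKM (-0.24). S6k, the kinase through which TOR promotes protein synthesis, was at 21.9 and 14.1 RPKM (-0.64).

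Glycolysis genes were higher at day 26. Of 11 compared, 4 were higher against 3.07% of all genes, none was lower, and 10 lay above 0, with a median log2 ratio of 0.84. Pglym78, a phosphoglycerate mutase, went from 34.8 to 89.2 RPKM (1.36, interval 1.25 to 1.47), Gapdh1 from 148 to 345 RPKM (1.23), Pgi from 217 to 467 RPKM (1.11) and Tpi from 62.3 to 127 RPKM (1.02). The regulated steps were among the 7 genes that stayed within 2-fold. Pfk, phosphofructokinase, was at 31.7 and 45.3 RPKM (0.51), PyK, pyruvate kinase, at 232 and 381 RPKM (0.72), and Hex-A, the muscle hexokinase, at 31.1 and 24.9 RPKM (-0.32).

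The time course of Gapdh1 shows the level from which this difference began. In Esg>yki thoraces it stood at 2634 RPKM on day 2, 366 on day 8, 96.8 on day 14, 148 on day 20, 345 on day 26, 312 on day 32 and 268 on day 38, and in control thoraces at 3687, 201 and 197 RPKM on days 2, 14 and 38. Summed over the list, RPKM was 867 on day 14, then 1431 on day 20, 2673 on day 26, 2552 on day 32 and 2568 on day 38. The larger step of the shutdown phase lay between days 20 and 26, and the sum differed little after it. Control thoraces summed to 1717 RPKM on day 14 and 2572 on day 38, and on day 2 the sum was 8897 RPKM in control and 7317 in Esg>yki thoraces.

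Genes that join glycolysis to the mitochondria were on the same side. Gpdh1, the cytosolic glycerol phosphate dehydrogenase of the shuttle that flight muscle uses to reoxidize NADH, went from 82.7 to 189.8 RPKM (log2 ratio 1.20), although it overlaps a gene on the other strand. Its mitochondrial partner Gpo1 was at 55.6 and 99.7 RPKM (0.84). Ldh, lactate dehydrogenase, was low at 2.46 and 3.81 RPKM (0.63). Argk1, arginine kinase, the phosphagen buffer of insect muscle, was picked after its values had been seen and went from 189 to 479 RPKM (interval 1.31 to 1.37 on the log2 scale).

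The mitochondrial program encoded in the nucleus lay above 0 almost throughout, mostly within 2-fold. All 15 TCA cycle genes lay above 0 and 2 were called, both membrane subunits of succinate dehydrogenase: SdhC went from 63.2 to 134 RPKM (log2 ratio 1.08) and SdhD from 48.7 to 106 RPKM (1.12). Of 60 nuclear oxidative phosphorylation genes, 8 were higher against 3.07% of all genes, none was lower and 58 lay above 0, with a median of 0.75. The complexes were close to each other, with medians of 0.75 for 33 genes of complex I, 0.81 for 8 of complex III, 0.86 for 7 of complex IV and 0.66 for 11 of complex V. ND-MLRQ went from 243 to 534 RPKM, COX7C from 236 to 511 RPKM and ATPsyngamma, the rotor of the ATP synthase, from 68.9 to 144 RPKM. COX7A and ND-B8 were the exceptions below 0, at 61.6 and 52.5 RPKM and at 27.4 and 26.2 RPKM, and ND-B8 turned above 0 under TMM or DESeq2 scaling.

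The mitochondrial ribosome followed, while the ribosome of the cytosol did not. Of 72 mitochondrial ribosomal protein genes 11 were higher and 71 lay above 0, with medians of 0.68 for the large subunit and 0.75 for the small subunit. Of these, mRpL23 stood at 50.5 RPKM on day 26 (log2 ratio 1.33) and mRpS30 from 27.7 to 66.2 RPKM (1.26). None of 82 cytosolic ribosomal protein genes was called, and their median was 0.01. The 13 protein genes of the mitochondrial genome were also within 2-fold, with a median of 0.18 and mt:CoI at 89016 and 87631 RPKM. The nuclear and mitochondrial genes of the same complexes thus differed by unequal amounts.

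**Figure D3:**
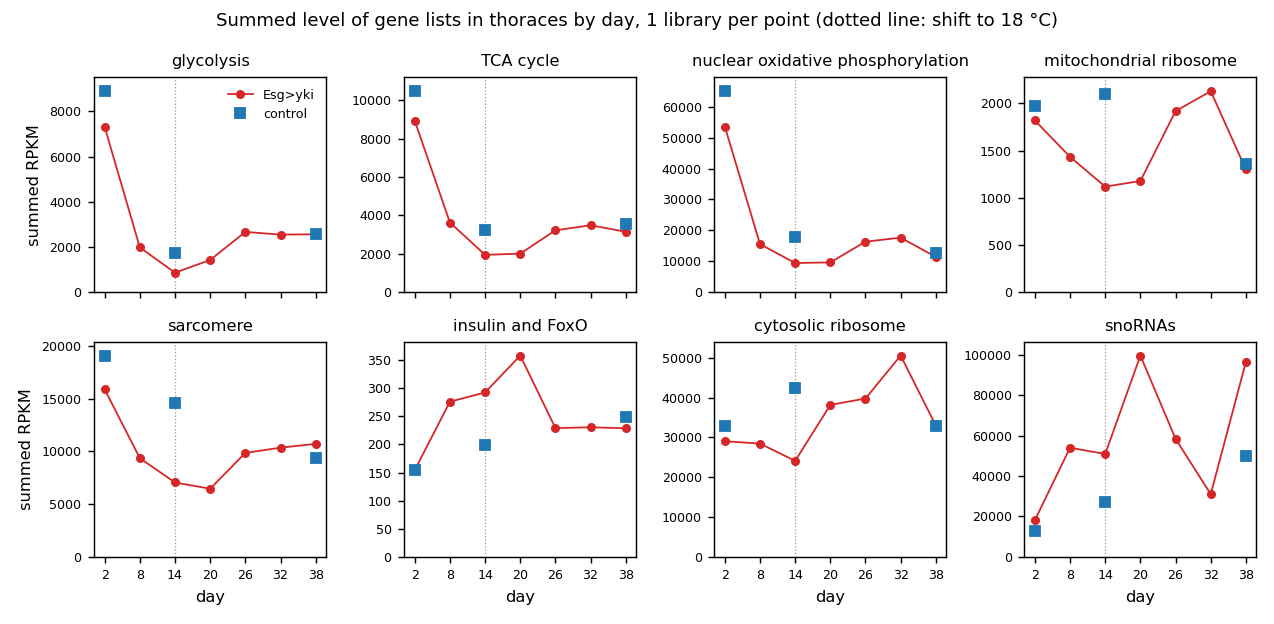
Summed RPKM (vertical axis) of 8 gene lists against day, for Esg>yki thoraces (red line) and control thoraces (blue squares), 1 library per point, with the shift to 18 °C dotted. From day 20 to day 26 the sum for glycolysis goes from 1431 to 2673 RPKM and that for insulin and FoxO genes from 359 to 229 RPKM.

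Sarcomere genes were higher in part, led by flight muscle isoforms. Of 28 compared, 6 were higher against 3.07% of all genes, none was lower and the median log2 ratio was 0.48. The largest was fln, flightin, a myosin-binding protein restricted to flight muscle, at 18.0 RPKM on day 20 and 78.1 on day 26 (2.12, interval 1.99 to 2.26). In Esg>yki thoraces fln stood at 828 RPKM on day 2, 82.8 on day 8, 65.2 on day 14, 74.9 on day 32 and 34.8 on day 38, so day 20 was the lowest library of the course. In control thoraces it stood at 1419, 322 and 85.7 RPKM on days 2, 14 and 38. It overlaps a gene on the other strand.

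The troponins and the flight muscle actin moved the same way. TpnC41C went from 58.9 to 185 RPKM (log2 ratio 1.65) and TpnC4, the stretch-activated troponin C, from 213 to 501 RPKM (1.23). Troponin T, encoded by up, went from 190.2 to 388 RPKM (1.03). Act88F, the actin of flight muscle, went from 286 to 664 RPKM (1.21) and was at 194 RPKM on day 14 and 1230 on day 32. Mhc went from 272 to 603 RPKM (1.15, interval 1.14 to 1.16). Giant scaffold genes lay slightly below 0: sls, which encodes titin-like proteins, was at 173 and 148 RPKM (-0.22) and Msp300 at 91.8 and 79.0 RPKM (-0.22). Of 9 calcium handling genes compared none was called. In that list 6 of 10 with reads lay below 0 (5 under TMM or DESeq2 scaling), with a median of -0.20. SERCA, the calcium pump that ends contraction, was the highest of that list, at 136 and 227 RPKM (0.74). None of 9 muscle transcription factor genes compared passed 2-fold. In that list 7 of 10 with reads lay below 0, with a median of -0.23. The lowest, at -1.55, stayed under 2 RPKM and was not compared. Mef2 was at 17.2 and 13.4 RPKM and salm, which specifies flight muscle, at 2.57 and 4.20 RPKM.

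**Figure D4:**
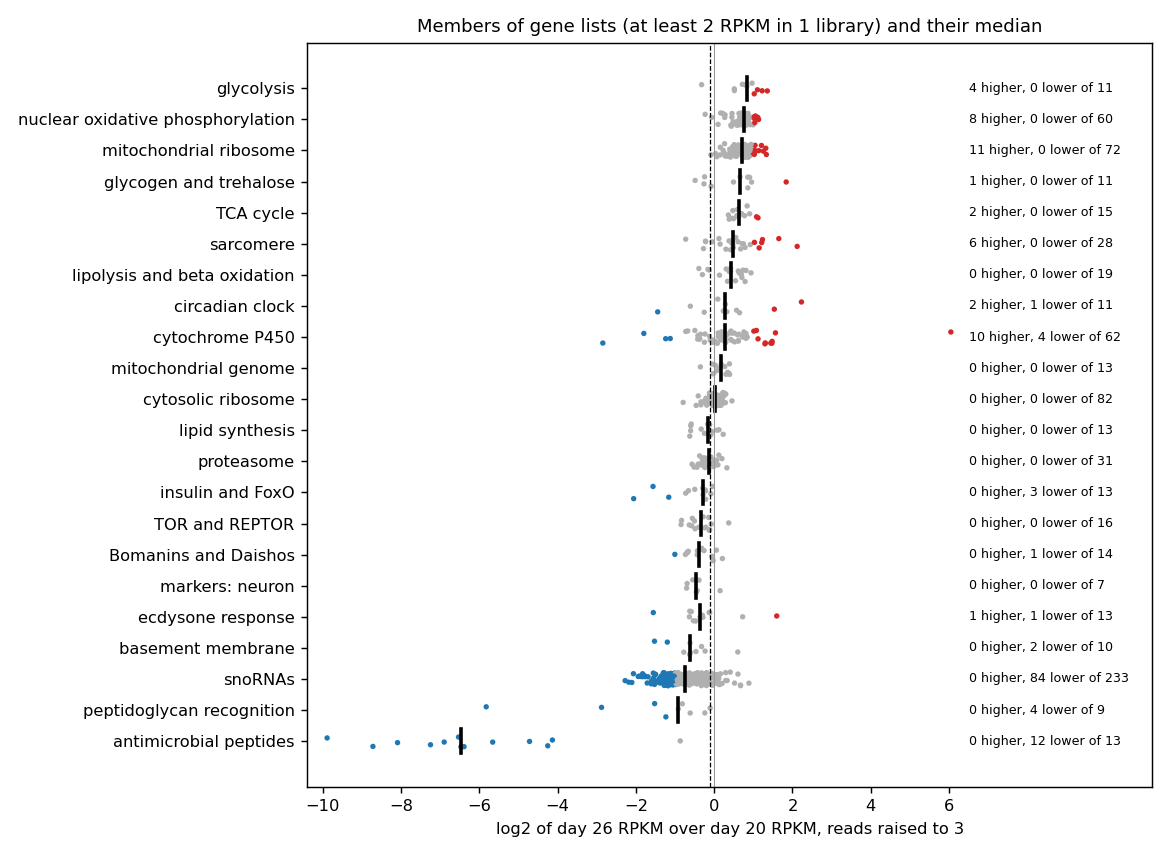
Log2 ratio of day 26 over day 20 (horizontal axis) for each member of 22 gene lists with at least 2 RPKM in 1 of the libraries, with members more than 2-fold higher in red, lower in blue and others in gray. Black bars mark list medians, the dashed line marks the median of all genes at -0.11, and the counts of called members stand at the right.

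Carbohydrate storage and fat oxidation genes leaned higher, with few calls. Of 11 glycogen and trehalose genes 1 was higher and 7 lay above 0, with a median log2 ratio of 0.66. The call was tobi, an alpha-glucosidase gene that responds to insulin and glucagon-like signals, at 1.14 and 4.10 RPKM (1.84). GlyP, glycogen phosphorylase, was at 127 and 246 RPKM (0.96), and GlyS, glycogen synthase, at 45.2 and 81.9 RPKM (0.86). Of 19 lipolysis and beta oxidation genes compared none was called, although 16 of 20 with reads lay above 0. Mcad, an acyl-CoA dehydrogenase, was at 49.5 RPKM on day 20 (0.94) and whd, the carnitine palmitoyltransferase that brings fatty acids into mitochondria, at 78.4 and 105 RPKM (0.42). The lipase bmm, which releases stored fat, lay on the other side at 29.1 and 22.2 RPKM (-0.39). Lipid synthesis genes were within 2-fold with 10 of 13 below 0 (8 under TMM and 7 under DESeq2 scaling). Their median log2 ratio was -0.17, close to the -0.11 of all genes. FASN1, fatty acid synthase, was the lowest of the list at 284 and 184 RPKM (-0.62). Desat1, a desaturase, was at 646 and 425 RPKM (-0.60). Pepck2, a gluconeogenic enzyme, was higher at 1.01 and 3.80 RPKM (1.91).

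Secreted fat body proteins were higher for 3 of 10 genes compared, beside 3.07% of all genes. Lsp2, a storage protein, went from 4.03 to 11.4 RPKM, Obp99b from 2.58 to 6.93 RPKM (log2 ratio 1.43) and Obp44a from 9.48 to 26.7 RPKM (1.49). Obp99b had stood at 1641 RPKM in control thoraces of day 14 and at 2.29 in Esg>yki thoraces of that day, so its day 26 level remained far under the control value. It was at 64.9 RPKM on day 32. The abundant products apolpp and Tsf1, transferrin, were level at 1467 and 1622 RPKM and at 492 and 504 RPKM.

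Of 62 cytochrome P450 genes compared, which act in detoxification and hormone metabolism, 10 were higher and 4 lower, beside 3.07% and 3.18% of all genes. Cyp6a8 went from 31.3 to 4.35 RPKM (log2 ratio -2.85), Cyp6w1 from 126 to 36.1 RPKM (-1.80) and Cyp6t1 from 6.91 to 20.5 RPKM (1.57). Cyp6w1 had been at 15.6 RPKM on day 14 and shared the day 20 peak. Cyp6a18 had 0 reads at day 20 and 249 at day 26, at least 66.2-fold higher against 3 reads. Of 26 glutathione transferases compared 1 was higher, GstE10, at 0.35 and 3.05 RPKM, a share near that of all genes. Cyp6a18 and GstE10 are among 32 genes described below that were high at day 26 and near 0 at days 14, 20 and 32.

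Basement membrane genes were lower for 2 of 10, beside 3.18% of all genes, with a median log2 ratio of -0.61 and 9 of 10 below 0. Col4a1, a type IV collagen chain, went from 20.6 to 8.99 RPKM (-1.20), and its partner vkg was at 35.0 and 20.4 RPKM (-0.78). Ndg, nidogen, went from 3.17 to 1.10 RPKM (-1.53), a call that ends with a pseudocount of 1 RPKM. Both collagen genes had been lower at day 14, at 6.12 and 6.94 RPKM. Heat shock genes had 1 higher of 10, beside 3.07% of all genes. It was Hsp70Bb, 1 of several near-identical copies, at 1.16 and 3.31 RPKM. The unfolded protein list had 1 lower of 13, beside 3.18% of all genes, which was Thor again.

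Clock genes moved in opposite directions. Of 11, tim (timeless) was higher, at 17.9 and 52.0 RPKM (log2 ratio 1.54), and so was to (takeout), a clock- and starvation-responsive gene, at 65.8 and 309 RPKM (2.23), whereas Clk (Clock) was lower at 10.3 and 3.79 RPKM (-1.44). The gene to stood at 7.02 RPKM on day 14, 465 on day 32 and 402 on day 38 in Esg>yki thoraces and at 242 and 614 RPKM in control thoraces of days 14 and 38. In contrast, tim was at 38.9 RPKM on day 14 and 26.6 on day 32, so its day 26 value was the highest of the Esg>yki course. The hour of dissection is not given in the sources used here, and its part in these values was not tested. Of 13 ecdysone response genes compared 1 was lower and 1 higher, beside 3.18% and 3.07% of all genes. Hr38, a nuclear receptor, was lower at 3.40 and 1.15 RPKM (-1.56), and MsrA, a methionine sulfoxide reductase, was higher at 60.8 and 184 RPKM (1.60). Of the 19 ecdysone response genes with reads 17 lay below 0 (17 under TMM and 16 under DESeq2 scaling), with a median of -0.53.

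Of 12 cuticle genes compared 3 were higher and 1 was lower, beside 3.07% and 3.18% of all genes. Of 10 digestive genes compared 1 was higher and none lower. Cpr65Au went from 48.2 to 256 RPKM (log2 ratio 2.41, interval 2.28 to 2.53) and was at 58.3 RPKM on day 14, 314 on day 32 and 323 in control thoraces of day 14. Cpr49Ae went from 1.92 to 10.0 RPKM (2.38), Cpr51A from 2.55 to 5.31 RPKM (1.05), and Cpr76Bd was lower at 2.48 and 1.12 RPKM (-1.15). The calls of Cpr51A and Cpr76Bd end with a pseudocount of 1 RPKM. Mal-B1, a maltase, went from 11.6 to 64.3 RPKM (2.47). Its course had no single trend, with 22.2 RPKM on day 2, 173 on day 8, 66.7 on day 14, 39.1 on day 32 and 40.9 on day 38.

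Among genes picked after their values had been seen, Drsl4, a drosomycin-like gene, was among the most abundant of the higher genes. It stood at 736 RPKM on day 2, 75.3 on day 8, 6.17 on day 14, 109 on day 20, 588 on day 26, 555 on day 32 and 496 on day 38 in Esg>yki thoraces, and at 844, 763 and 996 RPKM in control thoraces on days 2, 14 and 38. It was 5.41-fold higher at day 26 than at day 20 (interval 2.33 to 2.54 on the log2 scale), opposite in direction to the antimicrobial peptides. Sodh-1, a sorbitol dehydrogenase, had a like course, at 46.7 RPKM on day 2, 2.94 on day 14, 10.1 on day 20, 51.8 on day 26 and 44.2 on day 32. On the lower side, CG45080 was at 1050.2 RPKM on day 20 and 378 on day 26, and Myc, the growth regulator, at 31.4 and 15.3 RPKM (log2 ratio -1.04, a call that ends under TMM or DESeq2 scaling or with a pseudocount of 1 RPKM).

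Small nucleolar RNAs, which guide the modification of ribosomal RNA, were lower as a class. Of 233 compared, 84 were lower at day 26, against 3.18% of all genes, and none was higher. The median log2 ratio was -0.74 over 240 with reads, of which 217 lay below 0. Those named for methylation sites were lower for 38 of 59, with a median of -1.08 and a median length of 79 bases. Those named for pseudouridine sites were lower for 18 of 104, with a median of -0.45 and a median length of 140 bases. The rest, under other names, were lower for 28 of 70, with a median of -0.92 and a median length of 136 bases. snoRNA:Psi18S-301 went from 420 to 86.7 RPKM (-2.28) and stood at 503 RPKM on day 14. snoRNA:Me18S-A469 went from 28.8 to 6.34 RPKM (-2.18). The share of reads on these RNAs was 1.12% on day 20, then 0.71% on day 26, 0.38% on day 32 and 1.06% on day 38, against 0.19% to 0.59% in control thoraces, so it followed no single course after the shift. The part of RNA size or of the library preparation in this difference was not tested. The pseudogene 28SrRNA-Psi:CR45855, a copy of part of the ribosomal RNA gene, went from 11.8 to 2.03 RPKM (-2.54). This was a larger fall than that of the rRNA share given above. Of non-coding genes with at least 10 RPKM, the most raised were tRNA:Pro-CGG-2-3 at 1.82 and 11.1 RPKM (2.61), asRNA:CR45195 at 5.56 and 19.4 RPKM (1.80) and asRNA:CR46065 at 30.8 and 76.6 RPKM (1.31). All 3 overlap a gene on the other strand. The tRNA rests on 3 reads at day 20 and was at 433 RPKM on day 38.

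The largest rises belonged to genes that were near 0 at day 20 and also near 0 at days 14 and 32. Muc68D, a mucin gene (FBgn0036203, chromosome 3L, positions 11767299 to 11772157, minus strand, Release 6), had 0 reads at day 20 and 1503 at day 26, which is 10.9 RPKM and at least 399-fold higher against 3 reads. In the other Esg>yki libraries Muc68D stood at 3.12 RPKM on day 2, 0.02 on day 8, 0.03 on day 14, 0.15 on day 32 and 21.2 on day 38, and in control thoraces at 0.16, 20.6 and 0.02 RPKM on days 2, 14 and 38. CG14645 had 1 read at day 20 and was at 36.1 RPKM on day 26 (log2 ratio 8.40, interval 5.91 to 13.70), 144 RPKM in control thoraces of day 14 and 125 in Esg>yki thoraces of day 38. Both genes were thus above 3 RPKM in Esg>yki thoraces of days 2, 26 and 38 and in control thoraces of day 14, and under 2 RPKM in the other 6 libraries.

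In all, 32 of the 262 higher genes were more than 8-fold above days 14, 20 and 32 at day 26, and 31 of the 34 genes higher by over 16-fold were among them. Without these 32 genes, 230 genes were higher. Summed over the 32, RPKM was 232 on day 26, against 2.77 on day 20, 4.34 on day 14 and 5.04 on day 32, but 169 in Esg>yki thoraces of day 2, 198 in control thoraces of day 14 and 200.04 in Esg>yki thoraces of day 38. At day 2 in Esg>yki thoraces 21 of the 32 reached 2 RPKM, and in control thoraces of day 14 and Esg>yki thoraces of day 38 it was 5 and 6. CG33258 was at 1.04 RPKM on day 20 and 32.03 on day 26 and at most 2.33 RPKM in the other 8 libraries. Alp2, an alkaline phosphatase, was at 0.00 RPKM on day 20, 10.1 on day 26, 0.04 on day 32 and 1.77 on day 2. Uro, urate oxidase, an enzyme known from the Malpighian tubules, was picked after its values had been seen and went from 0 reads at day 20 to 4.09 RPKM at day 26, with 4.40 RPKM at day 2 and at most 0.13 RPKM in the other 7 libraries. Beside them, the 7 gut markers summed to 32.8 RPKM in Esg>yki thoraces of day 2, 16.6 on day 38, 2.36 on day 26 and 0.823 on day 20. In control thoraces of days 2, 14 and 38 the gut markers summed to 8.56, 4.49 and 2.77 RPKM. The 32 genes summed there to 4.14, 198 and 6.25 RPKM. The part of tissue other than thorax in these 32 genes was not tested.

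**Figure D5:**
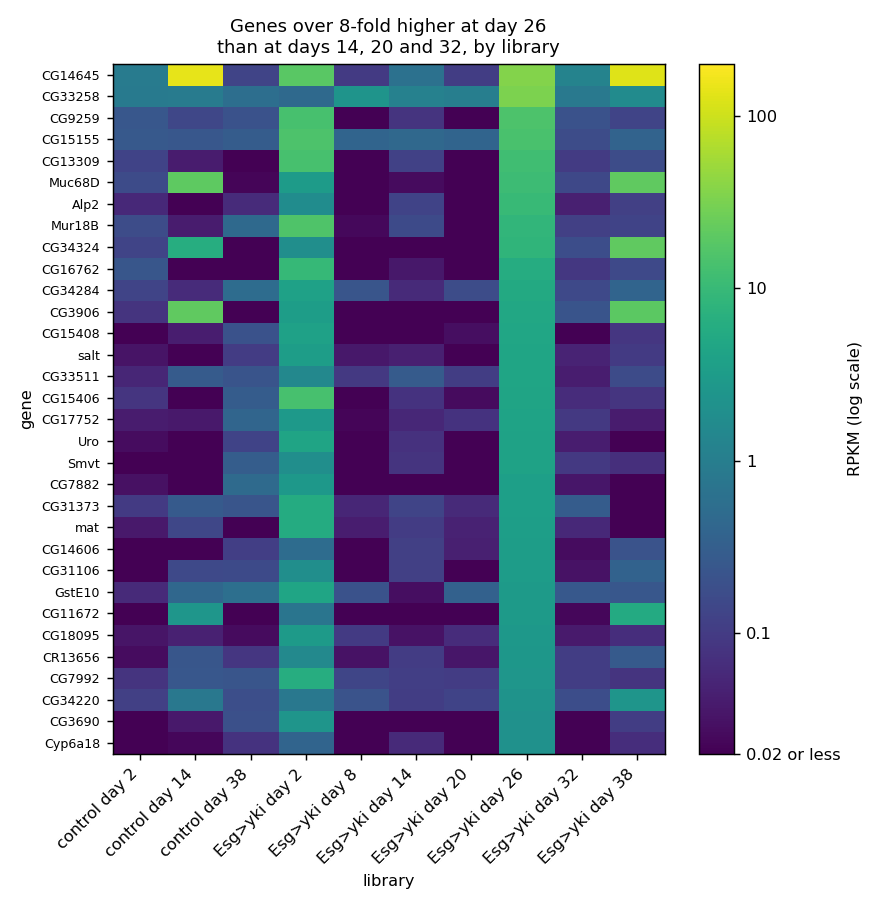
RPKM (color, log scale) of the 32 genes more than 8-fold higher at day 26 than at days 14, 20 and 32 (rows) in the 10 libraries (columns). The columns of Esg>yki day 26 and Esg>yki day 2 are bright for most rows, and control day 14 and Esg>yki day 38 for a few, among them CG14645 at 144 and 125 RPKM.

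Among genes with a large rise outside these 32, Nplp3 went from 1.38 to 11.5 RPKM (log2 ratio 3.06), with 401 RPKM on day 2 and 0.94 on day 14. CG11854 went from 1.73 to 12.7 RPKM (2.88) and stood at 12.6 RPKM on day 32 and 18.5 on day 38, against 8.71 and 17.0 RPKM in control thoraces of days 14 and 38. CG33301 went from 1.93 to 13.4 RPKM (2.80) and stood at 8.92 RPKM on day 32.

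Libraries outside the comparison were then examined for the genes called. Esg>yki thoraces of days 14 and 32 share no library with it. From day 14 to day 32, 73.9% of all genes compared had more RPKM, with a median log2 ratio of 0.45. The 262 higher genes had a median of 1.62 and 88.5% lay above 0, and the 271 lower genes had a median of -0.42 and 61.6% lay below 0. From day 14 to day 38 the medians were 0.33 for all genes, 1.45 for the higher genes and -0.11 for the lower ones. In control thoraces, which have no tumor, the medians from day 14 to day 38 were 0.08, -0.03 and 0.25. These are descriptions of single libraries, and no test was made.

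With day 32 in place of day 26, 385 genes were higher than at day 20 and 322 lower, of which 169 and 185 were among the genes called at day 26. For glycolysis the median log2 ratio from day 20 was 0.84 at day 26 and 0.84 at day 32, for nuclear oxidative phosphorylation 0.75 and 0.82, and for sarcomere genes 0.48 and 0.50. For antimicrobial peptides it was -6.50 over the 14 genes at day 26 and -3.89 at day 32. Day 20 is shared by these values.

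Several lists showed no call in either direction. The proteasome (31 genes compared, median -0.13), autophagy (19 genes, -0.14), aminoacyl tRNA synthetases (32 genes, 0.04), amino acid metabolism (22 genes, 0.15), redox enzymes (15 genes, -0.01) and the vacuolar ATPase (19 genes, -0.06) were all within 2-fold. Scaling by TMM or DESeq2 turned the sign of the medians of the vacuolar ATPase, the redox enzymes and the cuticle list, and scaling by DESeq2 moved the proteasome to 0.00. Hippo targets, the genes that Yorkie drives in its own tissue, had no call among 8 compared, with Diap1, an inhibitor of cell death, at 91.0 and 71.4 RPKM (-0.35). Of the 10 Hippo targets with reads 8 lay below 0 (7 under TMM or DESeq2 scaling), with a median of -0.33. The 12 genes of cell death and JNK signaling compared also stayed within 2-fold. In that list 14 of 16 with reads lay below 0 (14 under TMM and 13 under DESeq2 scaling), with a median of -0.38. Neuronal markers had no call, and 6 of 7 lay below 0, with a median of -0.46 and Syt1, a synaptic vesicle protein, at 32.1 and 23.4 RPKM.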

How the data were processed

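The authors depleted rRNA, sequenced each library in 4 pools, used STAR to align reads to FlyBase's genome and deposited estimated counts per gene for 10 libraries, which are multiples of 0.25 and not divided by depth or length. How reads were counted, whether by strand and how multiple matches were handled, is not given in the sources used here. The submitters' processing notes name FastQC, MultiQC, STAR, DESeq2 and the mouse build mm10, which cannot be that of a fly genome and was not used. The counts were multiplied by 4, on the assumption that they are means over the pools, and taken as reads. RPKM was then computed from merged exon lengths of an Ensembl annotation of the Release 6 assembly. Of the gene identifiers 99.7% matched, and 57 genes without a length (0.0760% of reads) were left out.

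Groups came from the sample labels. Each condition is 1 library, so no test across samples and no p-value was computed. Genes were called at a log2 ratio beyond 1 where either library reached 2 RPKM. A fold against a library with 0 reads is a lower bound set by a floor of 3 reads, and a ratio against 1 to 3 reads is printed with its counting interval. The genes named were the 10 protein-coding genes per direction with the largest change and at least 10 RPKM, 3 non-coding genes per direction, up to 4 called members per list (or its most expressed member) and genes the study discusses. Further list members, and others marked so in the text, were picked after their values were seen. Members and lists were chosen with earlier results of these data known. Of the 533 called genes 120 overlap a gene on the other strand, from which their reads cannot be told apart. Among those named are COX7C, CG11854, CG14645, Cpr65Au, GstE10, Hr38, Lsp2, Myc, Ndg, Obp44a, Pglym78, SdhD, mRpL23, tim and tobi.

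Alternatives were TMM scaling (edgeR 4.0.16), median of ratios (DESeq2 1.42.0) and nuclear protein-coding reads, a pseudocount of 1 RPKM, other minimums and cut-offs, and later libraries in place of day 26. Computations used Python 3.11.15 and R 4.3.3, and the calling rule was tested on simulated data.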

Additional observations from a re-analysis of the deposited data

How the results depend on the processing

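The counts of 262 higher and 271 lower genes depended mostly on the limits set. With no minimum RPKM they were 1397 and 1736, with a minimum of 10 RPKM 162 and 156, and with a cut-off of 1.3 on the log2 scale 134 and 145. With day 38 in place of day 26, 428 genes were higher and 380 lower, of which 122 and 118 were among those called at day 26. Among protein-coding genes alone, an alternative chosen after seeing the data, 247 were higher and 144 lower. A pseudocount of 1 RPKM gave 199 and 191, and scaling by nuclear protein-coding reads 262 and 269. TMM and DESeq2 scaling add 0.10 and 0.13 to every log2 ratio, so genes just below 0 change side. No paired analysis was possible because each condition has 1 library.

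Depth limits genes near 0: 23 of the lower genes had at most 3 reads at day 26 and 33 of the higher genes at most 3 reads at day 20. The spread between fly pools was not measured, and no single gene's difference here has been seen in a second pair of libraries of these days.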
